A study of Solanum tuberosum with 6 samples.

Results

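Leaves of potato (Solanum tuberosum, cultivar PS3) taken 1 day after a salt watering were compared with leaves of plants that had received tap water. The comparison covers every clone of a cDNA array with a value on at least 2 of the 3 arrays of that day, which held for 10181 of 10499 clones. Of these, 9446 had a value on all 3 arrays and 735 on 2. In 9738 of the 10181 the change could be tested, and the other 443, each measured on 2 arrays of day 1, left too few values to fit the dye beside the day. Clones with a value on 1 array of that day (212) or on none (106) were left out.

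The plants had been multiplied in vitro and kept in pots for 2 months at 21 °C by day and 18 °C by night, with 12 hours of light. At day 0 the salt group was watered with 75 mL of 150 mM NaCl and the control group with 75 mL of tap water, and the first and the second leaf were sampled 1 day later. On every array salt RNA and control RNA of the same day and replicate number met in opposite dyes, with salt in Cy3 on replicates 1 and 3 and in Cy5 on replicate 2. Leaves of other plants of both groups, taken after 3 days and measured on 3 further arrays, serve as the comparison in time. The labels call the replicates biological and do not say whether one stands for a plant or a pool, and all plants are of 1 cultivar under 1 salt dose.

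Every value is a log2 ratio of salt over control, on which 1 is a 2-fold rise and -1 a 2-fold fall. This direction is likely rather than given. It rests on labels that mark the control channel as the reference, while the array titles name control before salt. Arrays of opposite dye orientation ran the same way (r = 0.577 between replicates 1 and 2, 0.506 between replicates 2 and 3, across clones). That shows a direction common to the arrays, but not which of the 2 directions it is. Were the table reversed, each rise below would be a fall. The base of the logarithm is likewise taken as 2. A ratio holds no expression level, so the tissue could be checked no further than that 30 clones of Rubisco small subunit and chlorophyll a/b-binding proteins, the main leaf transcripts, were measured.

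Salt in the soil first makes water harder for the roots to take up, and leaves respond within hours, before much sodium has reached them. The hormone abscisic acid rises, stomata close, cell expansion slows, and genes for osmotic protection are switched on. Closed stomata limit carbon dioxide inside the leaf, so that light capture and carbon fixation can fall out of balance. In a mature leaf the transcripts for photosynthesis are among the most abundant, and most of the proteins concerned are made in the cytosol and imported into the chloroplast.

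At an adjusted p under 0.05 in limma, 796 of 9738 clones (8.17%) were higher with salt and 1011 (10.4%) were lower. The counts of each list below are to be read beside these 2 shares. In whole leaves a fall of this kind cannot be told apart from a smaller share of the cells that express the gene. The lower clones moved further: 360 of them lay beyond a log2 ratio of -1 and 54 beyond -2, against 143 and 12 of the higher clones beyond 1 and 2. The median was -0.81 among the lower and 0.63 among the higher clones, and 0.03 over all clones tested. Most of the calls kept their sign on each array, namely 777 of the 796 higher and 991 of the 1011 lower clones. These arrays also gave the calls, which favours 1 sign, and 48.0% of all clones with 3 values had it. The same limit holds for remarks below on the arrays of called clones. Since several clones can come from 1 gene, the calls were also counted by assembly, a cluster of overlapping sequences: they fell in 719 assemblies for the rises and 868 for the falls. Among 680 assemblies with at least 2 tested clones, the fitted values of an assembly's clones spanned a median of 0.16, and 1 assembly held calls in opposite directions.

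The 3 arrays did not weigh equally in these counts. Replicates 1 and 3, of one dye orientation, correlated with r = 0.809, and replicate 2 alone had the sign opposite to both others in 2828 clones, against 1044 for replicate 1 and 1009 for replicate 3. Leaving out replicate 2 left 171 higher and 367 lower clones. Without replicate 1 there were 407 and 574, and without replicate 3, 418 and 652. An array of day 3 also bears on the spread used for day 1, and without replicate 1 of day 3 the higher count was 1147. Day 1 counts of 0 to 2 clones in a role list lay between 0 and 6 for the rises and between 0 and 5 for the falls with an array left out. Where a count or call below is given without an array, the value in brackets is the fitted log2 ratio from the other 5 arrays, and fewer arrays alone also make a call harder to reach. In the authors' deposited table, 2033 clones had a p-value under 0.05 on day 1 and 0 after Benjamini-Hochberg adjustment (lowest 0.0611), where limma, which shares the variance across clones and uses the arrays of both days, gave 3027 at an unadjusted p under 0.05. Where the ratios of the replicate with salt in Cy5 were turned, in place of being read as running the same way, 0 clones passed (882 at an unadjusted p under 0.05). That fit kept the dye term, which then takes up what ran the same way on all arrays, so it is no separate support.

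**Figure D1:**
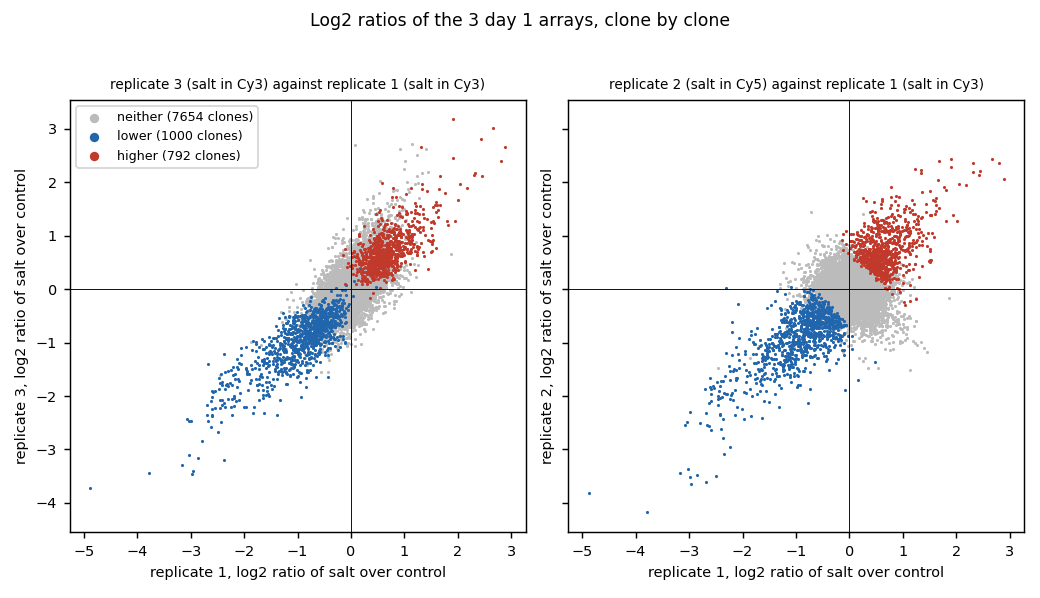
Log2 ratio of salt over control on replicate 3 (left panel) and replicate 2 (right panel) of day 1 (vertical axes) against replicate 1 (horizontal axes), 1 point per clone, with clones called higher in red and lower in blue. Replicate 3 follows replicate 1 (r = 0.809) more closely than replicate 2 does (r = 0.577). The called clones lie along the diagonal in both panels, which calling them on these same arrays favours.

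The plainest pattern on day 1 was a fall of chloroplast transcripts. Of 272 tested clones whose annotation names the chloroplast, a plastid or the thylakoid, words searched after the values had been seen, 152 were lower (55.9%) and 7 higher (2.57%). Their median log2 ratio was -0.55, -0.58 and -0.67 on replicates 1, 2 and 3, and 192 of 268 with a value on each array were below 0 on all of them. Among the other 6835 annotated clones tested, 9.99% were lower and 8.54% higher, with a median of 0.02. The 7 higher clones were 2 for pyruvate,phosphate dikinase, which makes phosphoenolpyruvate (STMFA23, 0.90; STMIO94, 0.48), and 1 each for ornithine carbamoyltransferase of arginine synthesis (STMGA53, 0.47), a DnaJ co-chaperone (STMHX91, 0.83), the photosystem II 10 kDa polypeptide (STMIJ64, 0.56), the nucleoid protein and protease CND41 (STMIM93, 0.92) and uroporphyrinogen decarboxylase (STMIS09, 0.56). STMFA23 (0.88), STMIM93 (0.77) and STMIS09 (0.44) did not pass without day 1 replicate 2. STMIJ64 (0.49, 0.67) did not pass without day 1 replicate 1 or replicate 2. STMGA53 (0.43, 0.52) did not pass without day 1 replicate 1 or replicate 3. STMIO94 (0.47, 0.44, 0.51) did not pass without any 1 of the day 1 arrays.

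Carbon dioxide reaches Rubisco with the help of carbonic anhydrase, which speeds the exchange between the gas and bicarbonate. Its 5 clones, all of 1 assembly and so perhaps 1 gene, were among the deepest falls. STMCV75 read -2.96, -3.65 and -3.41 on replicates 1, 2 and 3, and STMCR16 read -2.86, -3.48 and -3.16. No array of either clone came near 0, and the array medians of the 5 were -2.96, -3.48 and -3.16. In the fit STMCV75 fell by 3.45 (SE 0.25, adjusted p = 0.000103), a 10.9-fold difference.

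Rubisco, the enzyme that fixes carbon dioxide, and Rubisco activase, which keeps it in working form, were covered by 26 clones, of which 23 were lower and 0 higher, with a median of -1.98. The small subunit of Rubisco, encoded by a family of nuclear genes, had 20 clones in 9 assemblies and 18 of them were lower. STMIW88, the deepest, read -2.80, -2.50 and -2.85. At the other end, STMCJ24 read -0.24, -0.20 and -0.16 and STMFB24 read -0.25, -0.17 and -0.10, and neither passed. These 2 clones share an assembly and stood together, more than 2 log2 units above STMIW88 on every array. Of 6 activase clones 5 were lower, among them STMDB44 with -1.63, -2.41 and -2.32. The sixth, STMCF73, read -0.08, 0.52 and 0.40, was not called (adjusted p = 0.181), and stood at 1.19, 1.04 and 1.11 on the arrays of day 3.

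In the Calvin cycle, which turns fixed carbon into sugar phosphates, 16 of 20 enzyme clones were lower and 0 higher, with array medians of -1.07, -0.74 and -0.95. The A subunit of chloroplast glyceraldehyde-3-phosphate dehydrogenase, which carries out the reducing step, was deepest at -2.15, -2.36 and -2.10 in STMCP14 (fit -2.30, SE 0.27, adjusted p = 0.00064). Its partner subunit B (STMEV18) read 0.09, -0.40 and -0.23 and did not pass. Fructose-bisphosphate aldolase STMCH74 (-1.50) and ribulose-phosphate epimerase STMHR52 (-0.80), both of the part that rebuilds the carbon dioxide acceptor, were lower on each array. So were phosphoribulokinase STMBB26 (-1.07), which makes the acceptor itself, and fructose-1,6-bisphosphatase STMCF47 (-1.22). A chloroplast transketolase clone (STMER49, -1.32) was lower, whereas one annotated to the pepper enzyme (STMGV64) lay at -0.18, 0.10 and 0.01. The Calvin cycle count was 8 without day 1 replicate 1 and 8 without day 1 replicate 2. STMBB26 (-1.04) did not pass without day 1 replicate 1. STMCF47 (-1.25, -1.44) did not pass without day 1 replicate 1 or replicate 2. STMER49 (-1.31, -1.71, -1.17) did not pass without any 1 of the day 1 arrays.

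Photorespiration salvages the product that Rubisco forms with oxygen, through peroxisomes and mitochondria. Of 13 clones 4 were lower and 0 higher, and the median was 0.04, close to that of all clones. The 4 are annotated to enzymes that convert glycine to serine. They were the H-protein of glycine decarboxylase (STMIY23, -1.96, -1.22 and -1.52), its aminomethyltransferase (STMCL85, -1.32, -1.80 and -0.86) and 2 clones of serine hydroxymethyltransferase from 1 assembly (STMDV86, -1.07; STMCJ75, -0.98). Every array of these clones was below 0. The annotation of these last 2 clones names no compartment. The serine hydroxymethyltransferase clone annotated as the mitochondrial precursor (STMCR63), of another assembly, read 0.36, -0.39 and 0.04 and did not pass. The clones of glycolate oxidase, which forms glyoxylate in the peroxisome, and of the glyoxylate aminotransferases had fitted values from -0.12 (STMHE45) to 0.25 (STMGL68) and none passed.

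The antennae that gather light, made of chlorophyll a/b-binding proteins, had 27 tested clones, of which 20 were lower and 0 higher. Array medians were -1.14, -1.13 and -0.96. CP29, a minor antenna protein next to the photosystem II core, read -1.48, -1.69 and -1.86 in STMCC66 (fit -1.68, SE 0.12, adjusted p = 0.000103). A major antenna clone of photosystem II, STMCY82, read -1.86, -1.61 and -1.49. Antenna proteins of photosystem I were lower too, with fits of -1.09 in STMDP45 (type 8), -1.06 in STMCQ90 (type 6A) and -0.98 in STMCK36 (type 7). The 3 clones for early light-inducible proteins, relatives of the antennae that bind pigment under light stress, spread around 0 at -0.27 (STMJO47), 0.08 (STMIC42) and 0.14 (STMIX48) and did not pass. One further clone carrying a photosystem II antenna annotation, STMCN64, lay at -0.03, 0.12 and 0.26. STMCQ90 (-0.91) did not pass without day 1 replicate 2.

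Photosystem II splits water and photosystem I hands the electrons on to ferredoxin. Of 29 photosystem II clones 20 were lower and 1 higher, with a median of -0.93. The lower count was 12 without day 1 replicate 2. Both clones of the 22 kDa protein, which in Arabidopsis lets the antenna shed excess light as heat, fell deepest: STMCD24 read -2.38, -2.01 and -2.14 and STMIX78 read -2.42, -2.04 and -1.73. Subunits of the oxygen-evolving complex on the lumen side moved together, with STMDR17 (enhancer protein 2) at -1.22, -1.61 and -1.78 and STMCG72 (protein 3) at -1.38, -1.07 and -1.20. All 6 values lay on one side of 0, with little spread. The core subunits psbY (STMES83, -1.59) and W (STMCS92, -1.52) were lower as well. The exception was the 10 kDa polypeptide, whose 6 clones ranged from -0.19 (STMCM49) to 0.56, and STMIJ64 was the 1 called higher (0.58, 0.58 and 0.40). STMCS92 (-1.59) did not pass without day 1 replicate 2. STMIJ64 (0.49, 0.67) did not pass without day 1 replicate 1 or replicate 2.

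Photosystem I had 12 clones, 10 of them lower and 0 higher, with a median of -1.24. The psaK subunit read -2.07, -1.33 and -1.41 (STMIR79), subunit III, which docks plastocyanin, -1.55, -1.39 and -1.43 (STMCI32) and subunit H -1.46, -1.30 and -1.39 (STMIX56). The arrays of the last 2 lay close together. Repeat clones were not alike: another assembly annotated as subunit H (STMHX87, -0.48, -0.36 and -0.27) and one of subunit XI (STMCB57, -0.81, -0.16 and -0.39) were below 0 on all arrays and did not pass. Subunit N (STMEU31) read -2.30, 0.02 and -1.53, so that its fall (fit -1.10) was seen with salt in Cy3 and not on the array with salt in Cy5. STMEU31 (-0.76, -1.14) did not pass without day 1 replicate 1 or replicate 3.

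Electrons pass between the photosystems through the cytochrome b6f complex and plastocyanin, and the proton gradient drives the chloroplast ATP synthase. In this list 7 of 12 clones were lower and 0 higher, with a median of -0.70. The ATP synthase fell in its alpha subunit (STMIS74, -0.95, -1.62 and -1.75) and its gamma subunit (STMEY61, -0.74, -1.11 and -0.93), with no array near 0. Cytochrome b6f did not follow: the 2 clones of its Rieske protein (STMEI32, -0.20; STMEI07, 0.02) and cytochrome b6 (STMHY92, -0.16) passed neither way. Ferredoxin STMER33 stood at 0.45, -0.20 and 0.30, with replicate 2 below 0 and the others above. All 4 clones annotated as one small protein of the thylakoid lumen, picked after their values were seen, were lower, from -1.75 (STMCH02) to -0.56 (STMDU04). The electron transport count was 3 without day 1 replicate 1, 4 without day 1 replicate 2 and 3 without day 1 replicate 3. STMDU04 (-0.58, -0.67, -0.51) did not pass without any 1 of the day 1 arrays.

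**Figure D2:**
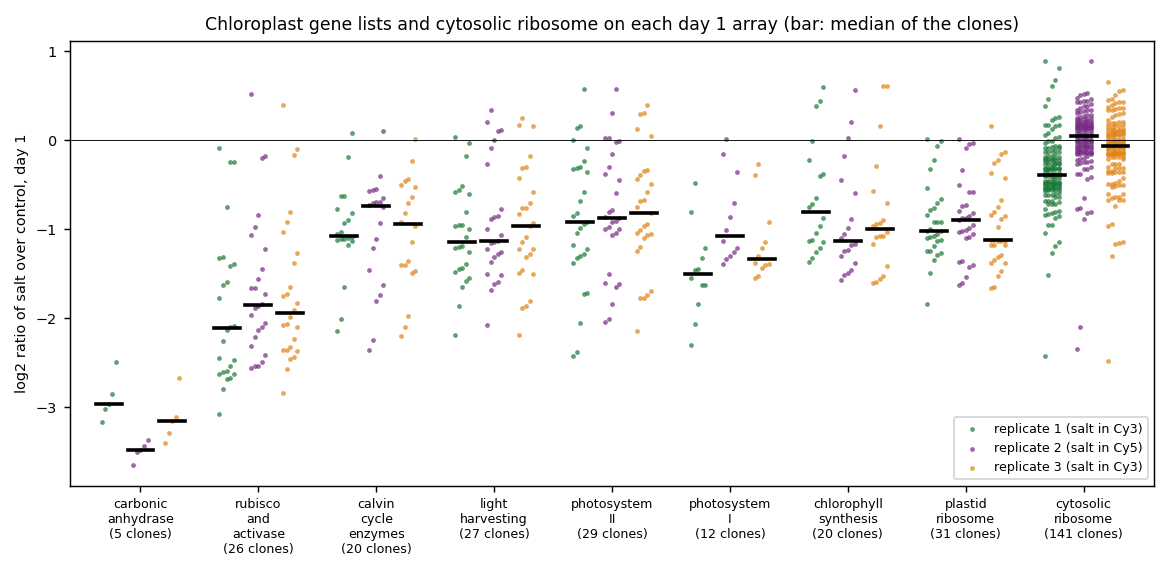
Log2 ratio of salt over control (vertical axis) on each of the 3 day 1 arrays, marked by colour, for the tested clones of 8 chloroplast lists and of the cytosolic ribosome (horizontal axis), 1 point per clone and array, with a bar at the median of the list on that array. The carbonic anhydrase medians of -2.96, -3.48 and -3.16 lie lowest, and the cytosolic ribosome has medians of -0.39, 0.04 and -0.07.

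Chlorophyll is built from glutamate by a chain of plastid enzymes, and 15 of its 20 clones were lower and 1 was higher, with array medians of -0.81, -1.13 and -1.0. The falls ran along the pathway. At its start, glutamate-1-semialdehyde aminomutase read -0.96, -1.49 and -1.41 (STMCK82), and porphobilinogen deaminase, which links 4 precursor rings, -1.22, -1.52 and -1.56 (STMEO67). At the magnesium branch, chelatase subunit D fell by 1.00 (STMDF10) and the cyclase that closes the fifth ring by 1.24 (STMJB01). Protochlorophyllide oxidoreductase, the step that needs light, fell by 1.27 in STMDH13. Uroporphyrinogen decarboxylase gave the 1 assembly with opposite calls: STMCQ80 read -0.65, -0.89 and -0.96 and STMIS09 read 0.60, 0.56 and 0.62. STMIS09 (0.44) did not pass without day 1 replicate 2. STMCQ80 (-0.93, -1.07, -0.77) did not pass without any 1 of the day 1 arrays.

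Clones of chlorophyll breakdown were higher where they passed. Those annotated as Lethal leaf spot 1-like, after the maize gene for the oxygenase that opens the chlorophyll ring, were searched after their values had been seen. All 5 (STMIM40, STMIP72, STMCM39, STMCM43 and STMDB75) were higher, with fitted values from 0.50 to 0.74, and none of them passed without day 1 replicate 2. STMDB75 read 1.23, 0.48 and 0.70 and STMCM39 read 0.71, 0.38 and 0.70, above 0 on each array. A chlorophyllase-2 clone (STMCN89) lay at 0.10, 0.15 and 0.20 and did not pass. In the carotenoid and plastid isoprenoid list 2 of 10 clones were lower, phytoene synthase (STMCV10, -0.64), which makes the first carotene, and lycopene epsilon-cyclase (STMDG03, -0.63), which leads to lutein. That list had a median of -0.06, close to 0. STMCM39 (0.54), STMDB75 (0.84) and STMDG03 (-0.69) did not pass without day 1 replicate 2. STMCM43 (0.52, 0.67) did not pass without day 1 replicate 1 or replicate 2. STMCV10 (-0.46, -0.58) did not pass without day 1 replicate 2 or replicate 3. STMIM40 (0.47, 0.54, 0.53) and STMIP72 (0.52, 0.54, 0.52) did not pass without any 1 of the day 1 arrays.

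The chloroplast has its own ribosomes, built largely of nuclear-encoded proteins, and their clones fell while those of cytosolic ribosomes mostly did not. Of 31 clones named as 30S or 50S proteins 26 were lower and 0 higher, with a median of -1.03. STMCU02 (S10) read -1.35, -1.63 and -1.53 and STMEQ27 (L3) read -1.12, -1.60 and -1.47. Every one of these arrays was well below 0. Of 141 clones of cytosolic ribosomes 12 were lower and 2 higher, with a median of -0.12 and array medians of -0.39, 0.04 and -0.07, so that replicate 1 was lower than the others. The deepest was STMIC02, annotated as L37, with -2.43, -2.34 and -2.48 (fit -2.45, adjusted p = 0.000169). The plastid ribosome count was 16 without day 1 replicate 1 and 12 without day 1 replicate 2, and the cytosolic one 3 without day 1 replicate 1, 4 without day 1 replicate 2, 6 without day 1 replicate 3 and 23 without day 3 replicate 1. STMEQ27 (-1.34) did not pass without day 1 replicate 2.

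Single clones of plastid gene expression and protein folding were lower too. A clone for subunit A of the amidotransferase that charges glutamine tRNA (STMIJ77) read -2.41, -2.35 and -2.07, and a trigger factor-like clone (STMCG40), named after a bacterial chaperone of nascent proteins, read -2.55, -1.82 and -2.23. Every array of both clones lay below 0. Chaperonin 21, the co-chaperonin of the chloroplast folding machine, fell by 1.22 (STMEL85, -1.09, -1.19 and -1.25). The protease ftsH, which in chloroplasts clears damaged photosystem II proteins, fell by 0.73 (STMEJ17). STMEJ17 (-0.86, -0.85, -0.54) did not pass without any 1 of the day 1 arrays.

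The activated methyl cycle supplies methyl groups for lignin and lipids, and was looked at after its clones appeared among the falls. All 5 clones annotated as potato methionine synthase, which makes methionine from homocysteine, were lower, from -1.47 (STMDD55) to -0.77 (STMEA84). STMDD55 read -1.31, -1.62 and -1.33. All 4 of adenosylhomocysteinase, which clears the by-product of methylation, were lower as well, from -1.09 (STMJJ67, -1.28, -0.95 and -1.12) to -0.87 (STMGN56). S-adenosylmethionine synthase, the step between, was divided, and not all of its clones are named here. Lower were STMGV89 (-0.77) and STMES39 (-0.64). The 4 clones annotated to the Solanum brevidens enzyme ran from 0.08 (STMCI86) to 0.70 (STMCQ94), with a median of 0.42. Of these 4, STMIN37 (0.52) and STMCQ94 were called higher. The higher and the lower of the named clones did not overlap on any array, which calls of opposite sign favour. STMEA84 (-0.77), STMES39 (-0.66) and STMCQ94 (0.59) did not pass without day 1 replicate 2. STMGV89 (-0.54, -1.07) did not pass without day 1 replicate 1 or replicate 2. STMIN37 (0.40, 0.44) did not pass without day 1 replicate 2 or replicate 3.

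Phosphoethanolamine N-methyltransferase, which makes the head group of phosphatidylcholine and the precursor of glycine betaine, read -2.41, -2.62 and -2.18 in STMCS89 (fit -2.40, SE 0.18, adjusted p = 0.000108). S-adenosylmethionine decarboxylase, which leads to the polyamines spermidine and spermine, had STMIX62 at -1.31, -1.10 and -1.33. In the list of osmolytes, proline and polyamines, 9 of 35 clones were lower and 6 higher. Higher were ornithine aminotransferase (STMDT65, 0.74, 1.05 and 0.74), which yields a precursor of proline, and a trehalose-6-phosphate synthase (STMGI30, 0.93, 0.91 and 1.06). Another trehalose-6-phosphate synthase clone of a different assembly was lower (STMGI78, -0.38, -1.06 and -0.89). The osmolyte counts were 5 without day 1 replicate 1, 2 without day 1 replicate 2 and 4 without day 1 replicate 3 for the falls and 2 without day 1 replicate 2 and 3 without day 1 replicate 3 for the rises. STMGI78 (-0.89) did not pass without day 1 replicate 2.

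Cell walls loosen as cells grow, and their clones fell more often than they rose. Of 81 wall clones 26 were lower and 4 higher, with a median of -0.08. Expansins, which let wall polymers slip, included STMGB59 at -2.45, -1.91 and -2.23. Pectinesterases, which trim the methyl groups of pectin, were lower in STMGF63 (-1.19, -1.31 and -1.58) and STMJK74 (-1.09, -1.04 and -1.43). All arrays of the 3 clones lay below 0, at 2-fold or more. LEXYL2, a tomato beta-xylosidase that trims wall sugars, had 4 clones in 2 assemblies, all of them lower, STMIQ06 furthest at -1.54, -1.23 and -1.17. A beta-mannosidase clone (STMCV42) read -2.23, -2.06 and -2.36. The wall counts were 17 without day 1 replicate 1, 7 without day 1 replicate 2 and 17 without day 1 replicate 3 for the falls and 2 without day 1 replicate 1, 1 without day 1 replicate 2 and 2 without day 1 replicate 3 for the rises.

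The deepest fall of all tested clones was that of STMJC16, annotated as the tomato gibberellin-stimulated gene GAST1, at -4.88, -3.82 and -3.73. In the fit it fell by 4.04 (SE 0.23, adjusted p = 5.35e-05), or 16.4-fold. STMJC16 is not among the 57 tested clones of the auxin, gibberellin and growth list, whose lowest fitted value was -2.7. Of these 57 clones 7 were lower (12.3%) and 6 higher (10.5%), with a median of -0.01. Over all clones tested these shares were 10.4% and 8.17%. An auxin-induced SAUR-like clone was lower (STMIS62, -0.83, -0.84 and -1.01). The counts of the auxin, gibberellin and growth list were 2 without day 1 replicate 1 and 1 without day 1 replicate 2 for the falls and 3 without day 1 replicate 1 and 0 without day 1 replicate 2 for the rises.

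Water moves through membranes by aquaporins. Of 14 clones 5 were lower and 2 higher, with a median of -0.34. NIP5.1, named after an Arabidopsis channel for boric acid, read -1.53, -1.27 and -1.54 in STMIS78, whereas STMJB02, of another assembly, read -0.47, 0.06 and -0.11 and did not pass. A delta-type aquaporin of the vacuole membrane read -1.27, -1.01 and -1.06 in STMIV08. The 2 higher clones were both of the plasma-membrane type MIP2 and weaker: STMEQ06 read -0.14, 0.92 and 0.63 and STMIQ12 read 0.06, 0.81 and 0.70, with replicate 1 near 0 in both. The aquaporin count was 3 without day 1 replicate 2. STMIQ12 (0.30, 0.43) did not pass without day 1 replicate 2 or replicate 3. STMEQ06 (0.44, 0.39, 0.58) did not pass without day 1 replicate 2, replicate 3 or day 3 replicate 2.

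Among 96 clones of lipid transfer, waxes and fatty acids 19 were lower and 8 higher. The desaturases, which put the double bonds into membrane lipids, fell: oleate desaturase STMIY10 read -1.51, -1.16 and -1.20 and the omega-3 desaturase STMED10 read -0.66, -0.93 and -0.96. A stearoyl-carrier desaturase of the plastid (STMCA28) fell by 1.33. An acyl-CoA synthetase, which activates fatty acids, rose (STMFB08, 0.87, 1.74 and 1.03). Both clones of a non-specific lipid-transfer protein 2, thought to carry wax or cutin units, rose by 1.02 (STMGQ20) and 0.88 (STMGR44), and stood higher still on day 3 at 1.72 and 1.86. The lipid counts were 10 without day 1 replicate 1, 4 without day 1 replicate 2 and 12 without day 1 replicate 3 for the falls and 4 without day 1 replicate 1, 0 without day 1 replicate 2, 3 without day 1 replicate 3 and 5 without day 3 replicate 2 for the rises. STMCA28 (-1.19) did not pass without day 1 replicate 1. STMFB08 (0.83) and STMGQ20 (0.78) did not pass without day 1 replicate 2. STMGR44 (0.62, 0.75) did not pass without day 1 replicate 2 or replicate 3.

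Clones tied to abscisic acid and drying were higher where they passed. Of 38 clones 13 were higher and 0 lower, with array medians of 0.35, 0.30 and 0.47. Osmotin-like proteins, salt-induced defence proteins first described in tobacco, read 0.79, 1.58 and 1.12 in STMIT70 and 0.75, 1.53 and 0.69 in STMIT44. Replicate 2 was the highest in both, and the clones share an assembly. Of 11 clones annotated as RD22-like, after an Arabidopsis gene induced by drying and abscisic acid, 3 were higher, and STMCR18 read 1.02, 1.44 and 1.47. The DREB3 transcription factor, of a family that binds drought-responsive promoters, was higher in STMCY54 (0.67, 0.60 and 0.79). The count was 7 without day 1 replicate 1, 4 without day 1 replicate 2 and 8 without day 1 replicate 3. STMCY54 (0.69, 0.81) did not pass without day 1 replicate 1 or replicate 2.

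Protein phosphatases 2C hold abscisic acid signalling down and are themselves induced by it, and SnRK kinases act against them. Of 18 such clones 3 were higher and 0 lower. The 3 were all phosphatases, with STMCY12 at 0.83, 1.00 and 0.83 (fit 0.93, SE 0.13, adjusted p = 0.00125), STMHS17 at 0.70 and STMGP26 at 0.70, and the phosphatase count was 1 without day 1 replicate 1, 1 without day 1 replicate 2 and 1 without day 1 replicate 3. Calcium carries the early salt signal, and of 47 clones of calcium signalling 7 were higher (14.9%) and 4 lower (8.51%). Over all clones tested these shares were 8.17% and 10.4%. A calmodulin-like clone (STMER65) read 0.79, 1.15 and 0.96, a calcium-binding protein (STMES89) 0.69, 0.76 and 0.67 and the calcium-dependent protein kinase 4 (STMGY24) 0.93, 0.51 and 0.89. The first 2 stayed up on day 3, at 1.21 and 0.91. All 4 of the lower clones were 14-3-3 proteins, which bind phosphorylated partners, with STMJM89 at -1.97, -2.43 and -2.20 and STMJM46 at -1.35, -0.83 and -1.28. The calcium counts were 4 without day 1 replicate 1, 3 without day 1 replicate 2, 4 without day 1 replicate 3 and 4 without day 3 replicate 2 for the rises and 7 without day 3 replicate 1 for the falls. STMHS17 (0.73, 0.88, 0.60) and STMGP26 (0.84, 0.83, 0.51) did not pass without any 1 of the day 1 arrays.

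In starch and sucrose metabolism 6 of 29 clones were higher and 3 lower. Sucrose synthase, which splits sucrose, read 0.93, 0.98 and 0.78 in STMHF04. Higher still were the clones annotated as putative xylose isomerase, picked after their values were seen. All 4, in 2 assemblies, were higher: STMEK30 read 1.43, 1.60 and 1.31, STMCK24 1.23, 1.40 and 1.28, STMGR30 1.17, 1.48 and 1.33 and STMGB47 1.02, 1.50 and 1.10. No array of the 4 was below 0, and the clones differed little among themselves, and on day 3 the fits were 0.14 to 0.23. The starch and sucrose counts were 3 without day 1 replicate 1, 2 without day 1 replicate 2 and 3 without day 1 replicate 3 for the rises and 1 without day 1 replicate 1 and 1 without day 1 replicate 2 for the falls.

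Transcription factors were called higher more often than lower. Of 23 WRKY and NAC clones, families that act in stress and ageing leaves, 10 were higher and 2 lower, with array medians of 0.57, 0.14 and 0.60, replicate 2 the lowest. A potato WRKY clone (STMFB71) read 1.80, 1.28 and 1.28 and NAC6 (STMEZ82) read 1.08, 1.12 and 1.08. Against them, a clone named after grape WRKY2 (STMIW46) read -2.31, -1.96 and -1.77. Ethylene response factor 5, which in tomato answers wounding and drought, rose further (STMIK39, 2.32, 2.19 and 2.16, a 4.88-fold difference). Among 14 clones for ethylene synthesis and its response factors 4 were higher and 1 was lower, and the higher count was 1 without day 1 replicate 1, 1 without day 1 replicate 2 and 2 without day 1 replicate 3. The WRKY and NAC count was 5 without day 1 replicate 2 and 6 without day 1 replicate 3.

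Of 72 clones for MYB, homeobox, bZIP, bHLH and MADS proteins 10 were higher and 2 lower, and of 42 zinc finger clones 8 were higher and 2 lower. Homeobox-leucine zipper protein HAT22 read 1.08, 1.00 and 0.90 in STMIZ28. ATHB-7, which in Arabidopsis is induced by abscisic acid and water deficit, read 0.86, 0.75 and 1.38 in STMHT30. All 4 clones named DNA-binding protein 4 of tobacco, chosen after their values were seen, rose, STMEF49 by 1.91 (1.33, 2.24 and 1.97). A repeat of the same assembly, STMEG07, spread far more between arrays, at 1.30, 0.23 and 2.66. The MYB and homeobox count was 4 without day 1 replicate 2 and 16 without day 3 replicate 1, and the zinc finger count 2 without day 1 replicate 1, 0 without day 1 replicate 2, 3 without day 1 replicate 3 and 5 without day 3 replicate 2. STMHT30 (1.12) did not pass without day 1 replicate 2.

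Proteases of the vacuole were among the rises. Of 73 protease clones 16 were higher and 7 lower, with a median of 0.06. Vacuolar processing enzyme 1a, which activates other vacuolar proteins by cutting them, read 1.67, 2.40 and 2.11 in STMHL75 (fit 2.12, SE 0.16, adjusted p = 0.000108). The related enzyme 3 read 0.58, 0.91 and 0.91 in STMCX65. Cathepsin B-like cysteine proteinases, which digest protein in the vacuole, had 2 repeat clones at 1.17, 0.86 and 0.79 (STMEU11) and 1.05, 0.73 and 0.70 (STMJB45). A subtilisin-like protease of the cell wall fell instead (STMIU77, -0.91, -1.11 and -0.65). The protease counts were 6 without day 1 replicate 2 for the rises and 3 without day 1 replicate 1, 2 without day 1 replicate 2 and 3 without day 1 replicate 3 for the falls. STMCX65 (0.65) did not pass without day 1 replicate 2.

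Of 135 clones of ubiquitin tagging and the proteasome, which degrades tagged proteins, 23 were higher and 2 lower, with a median of 0.14. The RING finger protein ATL3F, a type of ubiquitin ligase, read 1.17, 1.66 and 1.21 in STMIU24 and stayed at 1.35 on day 3. Polyubiquitin, annotated as ubiquitin C, had 15 clones, of which 6 were higher and 1 lower, with a median of 0.34. The lower one, STMCL20, read -1.53, -1.09 and -0.90. The ubiquitin and proteasome count was 13 without day 1 replicate 1, 1 without day 1 replicate 2 and 11 without day 1 replicate 3.

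Chaperones fold other proteins, and heat shock proteins are those induced by stress. Their list had 71 clones, of which 20 were higher and 6 lower, with a median of 0.15. The counts were 13 without day 1 replicate 2 for the rises and 3 without day 1 replicate 2 for the falls. Among the rises was the cytosolic folding machine: HSC70 read 2.01, 1.27 and 1.66 in STMGV91 and 1.45, 0.81 and 0.91 in STMGD17, and its DnaJ helpers read 0.88, 1.12 and 1.01 in STMHU53 and 1.04, 1.31 and 1.40 in STMJK63. Replicate 1 was the highest for both HSC70 clones. Of 6 clones annotated as Hsp90-2-like, 5 rose, STMHA96 by 1.39. The 6 falls included chaperonins of the plastid and a clone named putative heat shock protein (STMIR71, -2.20, -0.81 and -1.61). The 6 clones of the chloroplast small heat shock protein, which heat induces strongly, stayed between -0.07 (STMHK25) and 0.19 (STMHK44) and none passed.

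Enzymes that remove peroxides were called lower more often than higher. In the thioredoxin family 8 of 28 clones were lower and 2 higher, and among 75 antioxidant clones 13 were lower and 4 higher. All 4 clones for thioredoxin peroxidase were lower, from -1.79 (STMCO25) to -1.52 (STMEP19), and STMJA50 read -1.71, -1.37 and -2.08. A sweet potato-type peroxiredoxin read -1.65, -1.05 and -1.13 in STMEP78. Superoxide dismutase, which makes hydrogen peroxide from superoxide, was lower in STMDZ61 (-0.95, -0.97 and -1.12) and STMJG34 (-0.96, -1.0 and -0.87), and dehydroascorbate reductase, which renews vitamin C, in STMCU36 (-0.95, -1.52 and -1.27). None of these arrays was near 0. The glutathione S-transferase STMET22 rose instead (0.51, 1.15 and 1.18). The counts were 5 without day 1 replicate 1, 5 without day 1 replicate 2, 5 without day 1 replicate 3 and 13 without day 3 replicate 1 for the thioredoxin family and 6 without day 1 replicate 1, 4 without day 1 replicate 2 and 6 without day 1 replicate 3 for the antioxidant clones, and those of the antioxidant rises were 0 without day 1 replicate 2, 2 without day 1 replicate 3, 10 without day 3 replicate 1 and 7 without day 3 replicate 3. STMET22 (0.99) did not pass without day 1 replicate 2.

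Defence genes did not move one way. Of 23 chitinase and glucanase clones 3 were higher (13%) and 4 lower (17.4%). Of 30 clones for pathogenesis-related proteins, lectins, germins and wound proteins 5 were higher (16.7%) and 3 lower (10%). Over all clones tested these shares were 8.17% and 10.4%. Class 1 chitinases, which cut the walls of fungi, gave both signs: STMHO72 read 2.89, 2.06 and 2.67 and STMJI49, of another assembly, -1.06, -1.45 and -1.08. A wound-induced tobacco gene was higher in STMIW38 (2.30, 2.37 and 2.14), and a 24K germin-like clone was lower in STMCM83 (-3.78, -4.18 and -3.45). The lowest fitted value of this wider defence list was -4.04, the value given above for the GAST1 clone STMJC16. A chitin-binding lectin (STMCQ19) read -2.37, -2.78 and -3.20 on day 1 and -6.62, -4.69 and -4.83 on day 3. None of 24 proteinase inhibitor clones was higher and 2 were lower (8.33%). In the jasmonate and oxylipin list, which makes the wound hormone and leaf aldehydes, 4 of 13 clones were lower and 0 higher, among them hydroperoxide lyase STMEL50 (-0.97, -0.98 and -1.19). Left-out arrays gave counts of 1 without day 1 replicate 2 and 1 without day 1 replicate 3 for the chitinase and glucanase rises, 1 without day 1 replicate 1, 1 without day 1 replicate 2 and 2 without day 1 replicate 3 for their falls, 2 without day 1 replicate 2 and 2 without day 1 replicate 3 for the rises of the wider defence list, and 1 without day 1 replicate 2 for the jasmonate and oxylipin falls.

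Clones for RNA binding and decay were higher in 17 of 116 (14.7%) and lower in 10 (8.62%), against 8.17% and 10.4% over all clones tested. A CCR4-associated factor, of the complex that shortens poly(A) tails, rose by 2.24 (STMDD59, 1.90, 2.28 and 2.45) and stood at 2.02 on day 3. A glycine-rich RNA-binding protein read 1.14, 1.08 and 0.97 in STMFB51. A viroid RNA-binding protein of tomato was lower in both its clones (STMGU10, -1.24, -0.88 and -1.12; STMGN32, -0.86, -0.83 and -0.94). Of 53 histone and chromatin clones 8 were higher and 1 lower, with histone H3.3, the variant of active genes, at 0.68, 1.25 and 1.02 in STMEG21. Translation factor 5A gave opposite calls in its isoforms, with 5A-1 at 0.65, 1.28 and 1.20 (STMEH80) and 5A-3 at -0.84, -0.85 and -0.85 (STMIF46). The counts of rises were 8 without day 1 replicate 1, 3 without day 1 replicate 2, 9 without day 1 replicate 3 and 26 without day 3 replicate 1 for RNA binding and 2 without day 1 replicate 2 and 3 without day 1 replicate 3 for histones. That of the RNA binding falls was 4 without day 1 replicate 1, 2 without day 1 replicate 2 and 6 without day 1 replicate 3. STMGN32 (-0.78) and STMEH80 (0.94) did not pass without day 1 replicate 2.

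**Figure D3:**
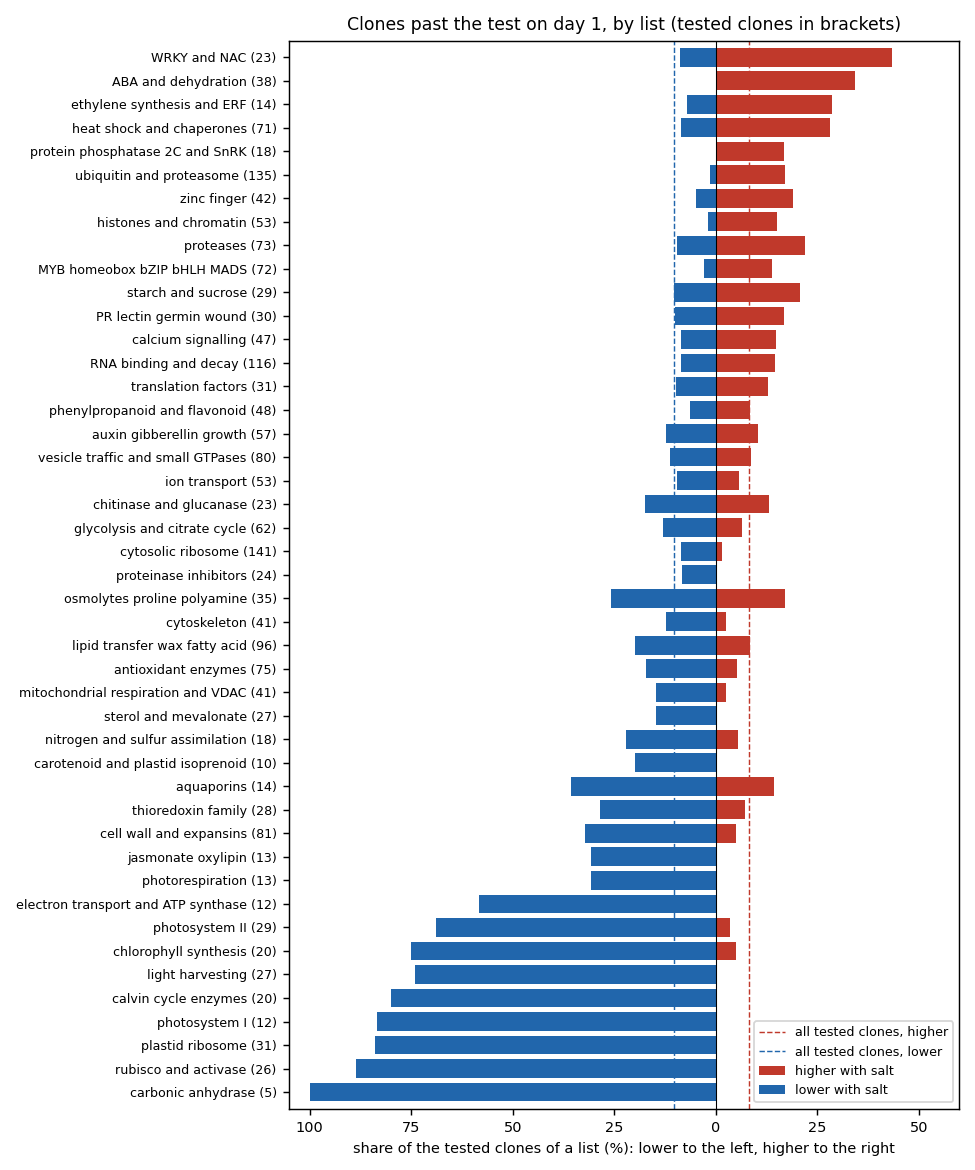
Share of tested clones called higher or lower on day 1 (horizontal axis, percent) for each role list (vertical axis), with dashed lines at the shares over all tested clones, 8.17% higher and 10.4% lower. The chloroplast lists reach far beyond the line for lower clones, and the abscisic acid, WRKY and NAC, and heat shock lists lie beyond the line for higher clones.

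The 15 largest rises among annotated clones, with 1 clone taken per annotation, were of many kinds. STMEK04, annotated as a hypothetical Arabidopsis protein, rose furthest, at 2.66, 2.43 and 3.02 (fit 2.73, SE 0.37, adjusted p = 0.00116). STMIA28, another Arabidopsis protein of unnamed role, read 2.80, 2.36 and 2.39, and a WD-repeat protein (STMCF40) 2.42, 2.13 and 2.81. A voltage-dependent anion channel of the mitochondrial outer membrane (STMGI75) read 1.90, 2.44 and 3.18, while 2 of 5 potato porin clones of that membrane fell (STMEG20, -0.63; STMCF61, -0.51). Cytosolic nucleoside diphosphate kinase, which passes phosphate between nucleotides, read 2.45, 2.21 and 2.12 in STMGY04. Only clones with the same sign on each day 1 array could be chosen for the 15. Every array of the rises named here was at more than 3-fold. STMCF61 (-0.44, -0.46) did not pass without day 1 replicate 1 or replicate 2. STMEG20 (-0.60, -0.90, -0.55) did not pass without any 1 of the day 1 arrays.

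Clones without annotation made up 2631 of those tested, 205 of them higher and 176 lower, with a median of 0.07. The deepest was STMCG17 at -2.98, -3.51 and -3.46 (fit -3.36, SE 0.13), with an adjusted p of 1.18e-05, and stood at -2.94 on day 3. Next came 2 clones of 1 assembly, STMCO07 at -2.67, -3.61 and -1.40 and STMCO08 at -2.35, -3.09 and -2.20. The arrays of STMCO07 spread over more than 2 log2 units and those of STMCO08 over less than 1. STMEG23 led the rises at 1.34, 2.17 and 1.87, followed by STMIA26 at 1.22, 2.24 and 1.55.

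**Figure D4:**
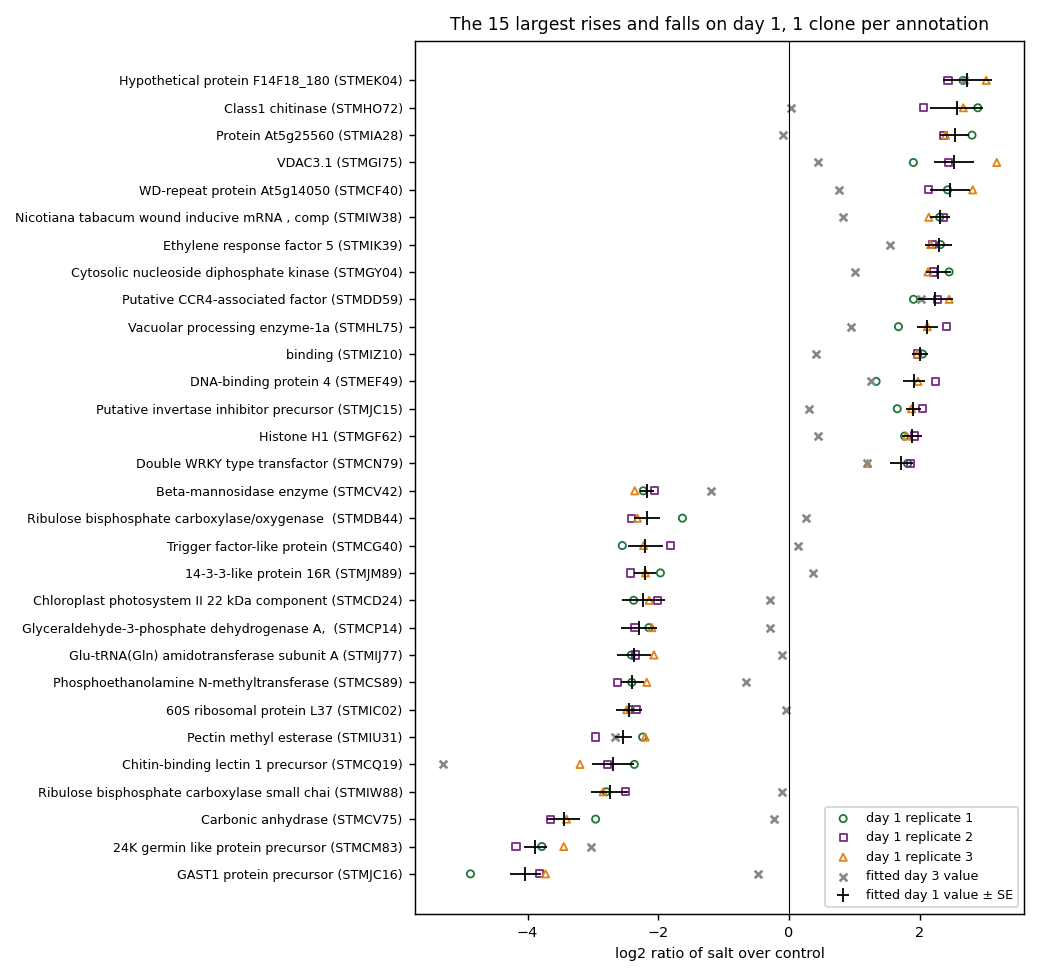
Log2 ratio of salt over control (horizontal axis) on each of the 3 day 1 arrays (open symbols) for the 15 annotated clones that rose furthest and the 15 that fell furthest, with 1 clone taken per annotation (vertical axis), a bar at the fitted day 1 value with its standard error, and a cross at the fitted day 3 value. Only clones with all 3 day 1 arrays on the same side of 0 could be chosen.

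How much of the day 1 response was still there on day 3 was asked with a contrast in the same fit, between different plants. The difference of day 3 minus day 1 was called in 560 of 9028 clones as higher (6.2%) and in 451 as lower (5%). Of the clones lower on day 1, 1003 could be compared: 462 were called higher on day 3 than on day 1 and 22 lower still, and their median on day 3 was -0.13. Of 782 clones higher on day 1, 279 were called lower on day 3 and 4 higher still, with a median of 0.12. On day 3 itself 174 of 9032 clones were higher (1.93%) and 400 lower (4.43%), and 178 of the day 1 falls and 91 of the day 1 rises were called in the same direction again. Some such return toward 0 can follow from choosing the clones by their day 1 values. Replicate 1 of day 3 correlated across clones with r of 0.031, -0.086 and 0.006 to the arrays of day 1, and with 0.475 and 0.523 to the other arrays of day 3. Without it the difference was higher in 628 clones and lower in 524. Without replicate 1, 2 or 3 of day 1 the counts were 128 and 171, 247 and 174, or 262 and 227, and without replicate 2 of day 3 they were 224 and 165.

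Carbon-fixation clones were among those that differed between the days. All 5 carbonic anhydrase clones were higher on day 3 than on day 1, with day 3 array medians of 0.91, -0.52 and -0.46. The same held for 24 of 26 Rubisco and activase clones, at 1.01, -0.27 and -0.27. In both lists replicate 1 of day 3 was above 0 and the others below, whereas all day 1 medians were far below 0. In the plastid ribosome list 20 clones differed upward, in chlorophyll synthesis 14 and in photosystem II 16. The Rubisco and activase count was 6 without day 1 replicate 1. The plastid ribosome count was 3 without day 1 replicate 1, 10 without day 1 replicate 2, 12 without day 1 replicate 3 and 9 without day 3 replicate 2, that of chlorophyll synthesis 8 without day 1 replicate 1, and that of photosystem II 3 without day 1 replicate 1, 5 without day 1 replicate 2, 5 without day 1 replicate 3 and 4 without day 3 replicate 2.

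The light-harvesting list had a day 3 median of -0.40 and photosystem I one of -0.49, and without replicate 1 of day 3 these were -0.43 and -0.52. STMCY82 still read -1.30, -1.0 and -0.92 on day 3. A few other clones held on or went further: LEXYL2 clone STMIQ06 read -1.49, -1.42 and -1.62, the germin-like STMCM83 -2.35, -3.23 and -3.28, and hydroperoxide lyase STMEL50 -1.62, -1.46 and -1.38. Among the rises, DNA-binding protein 4 (STMEF49) read 0.86, 1.32 and 1.37 and STMEK04 read 1.25, 3.12 and 3.55 on day 3. Of the heat shock and chaperone clones 15 were lower on day 3 than on day 1 and 6 higher, among them STMEL85 (1.88) and STMIR71 (1.68). Of the protease clones 14 were lower and 1 higher. The heat shock counts were 4 without day 1 replicate 1, 6 without day 1 replicate 2, 7 without day 1 replicate 3 and 6 without day 3 replicate 2 for the lower clones and 2 without day 1 replicate 1, 2 without day 1 replicate 2 and 2 without day 3 replicate 2 for the higher, and the count of lower protease clones 8 without day 1 replicate 1, 5 without day 1 replicate 2, 9 without day 1 replicate 3 and 5 without day 3 replicate 2.

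Some clones turned over between the days. A DnaJ clone, STMIF70, read 1.13, 1.45 and 1.28 on day 1 and -1.74, -0.82 and -0.83 on day 3. Subunit B of the vacuolar proton pump, STMIY89, went from 0.48, 1.27 and 0.86 to -1.90, -1.34 and -1.56. In the other direction, extensin STMGX29, a wall glycoprotein, went from -0.83, -1.23 and -1.56 to 1.44, 1.54 and 0.40, and the cation exchanger CAX, which moves calcium into the vacuole, from -0.86, -0.57 and -0.53 to 2.10, 0.87 and 1.14 in STMII56. In each of these 4 clones no array of one day overlapped those of the other. They are shown because they changed sign between the days, which favours such a gap, so it is no added support. STMIY89 (0.87) and STMGX29 (-0.88) did not pass without day 1 replicate 2. STMII56 (-0.55, -1.07, -0.72, -0.63) did not pass without any 1 of the day 1 arrays or day 3 replicate 2.

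**Figure D5:**
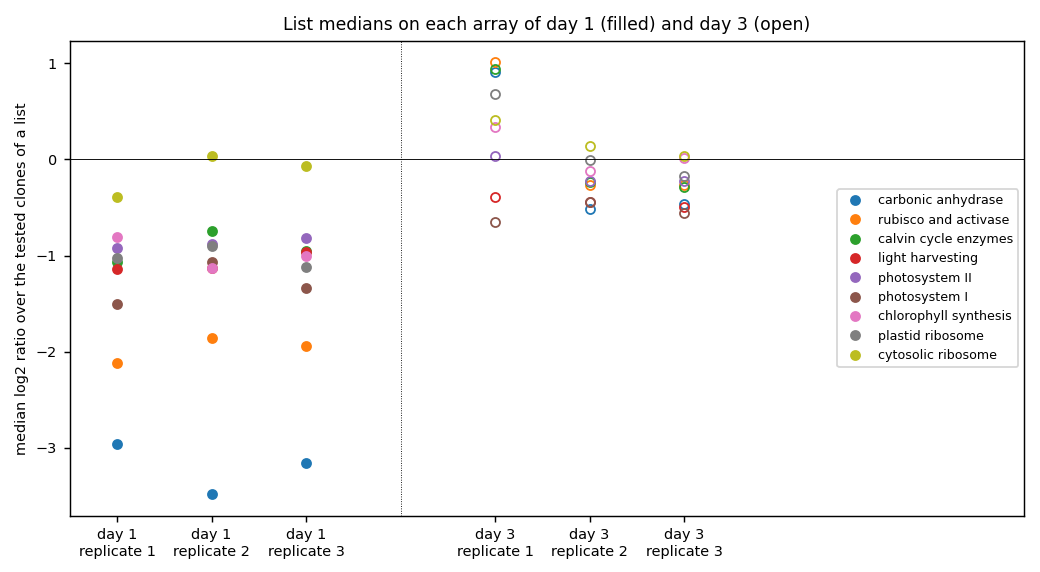
Median log2 ratio of salt over control (vertical axis) of 8 chloroplast lists and the cytosolic ribosome on each of the 3 arrays of day 1 (filled circles) and of day 3 (open circles) (horizontal axis), 1 colour per list. The Rubisco list lies at -2.12, -1.86 and -1.94 on day 1 and at 1.01, -0.27 and -0.27 on day 3.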

How the data were processed

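RNA of 100 mg of leaf (integrity number at least 7, 15 µg per dye) was labelled and hybridized in pairs, per the labels' protocols. The authors deposited 1 log ratio per clone and array and a p-value per clone and day. For scanner, background correction, normalization, spot filters and base of the logarithm nothing is stated (not given in the sources used here). The deposited ratios were read as log2 because base 10 would give implausibly large folds. The array medians of day 1 lay between -0.005 and 0.049. No intensities were used, so the ratios entered as deposited, and the annotated table was joined to the value table by its values (10499 of 10499 rows).

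Ratios of all 6 arrays were fitted in limma 3.58.1 (R 4.3.3) with a coefficient per day and a dye term per clone, 3 residual degrees of freedom with all arrays, and tested two-sided with Benjamini-Hochberg adjustment at 0.05 over all clones tested. The spread is shared over both days, and fitted values weigh replicate 2 more than a plain mean would. P-values and SEs measure the spread between biological replicates that is left after the dye term. Salt was in Cy5 on replicate 2 of both days, so a deviation common to these arrays went into the dye term and not into this spread. The dye term passed in 0 of 9738 clones (1822 at an unadjusted p under 0.05). Gene names are those of the deposited annotation, often of another species, and levels were not compared between genes. The 47 word-pattern lists, 27 of them corrected on wording alone, and the members were chosen with earlier results of these data known. Named were the 15 largest rises and falls with 1 sign on all arrays and 1 clone per annotation, up to 5 clones per list by p, the 8 smallest p per direction of the difference and the 10 largest repeat families. Of 214 clones named, 119 follow this rule and the other 95 were chosen after their values were seen. A list is described by its counts and median, without a test. The fit was tested on simulated data. Alternatives were the dye term, the arrays and clones kept, scaling, centring, turned ratios, a replicate block, a stricter threshold and each array left out. Tables were handled in Python 3.11.15 with pandas 2.3.3, NumPy 2.4.6, SciPy 1.17.1 and matplotlib 3.10.9.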

Additional observations from a re-analysis of the deposited data

Results flagged for a closer look

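For 16 annotated clones, the 8 per direction with the smallest p, the response to salt differed between the days by a contrast in the limma fit, with adjusted p from 0.000149 to 0.00115. The 3 arrays of a day are too few for a check of single outlying arrays, which was not made.

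Higher on day 3 than on day 1 was carbonic anhydrase STMCR16, by 3.18 (SE 0.26), from -2.86, -3.48 and -3.16 on the day 1 arrays to 0.73, -0.35 and -0.33 on those of day 3. The GAST1-like clone STMJC16 differed by 3.56, from -4.88, -3.82 and -3.73 to -1.29, -0.09 and -0.38. In both clones no array of one day overlapped those of the other, which choosing clones by the smallest p of this difference favours. The difference was 2.58 in a 14-3-3 protein (STMJM89), 2.45 in sulfate adenylyltransferase (STMDV93), 2.25 in EP1, a secreted glycoprotein of the carrot epidermis (STMDF40), and 2.06 in a cyclic nucleotide-gated channel 4 (STMIT24). It was 1.84 in an alpha-expansin (STMDH16) and 1.65 in the oxygen-evolving enhancer protein 1 (STMCP64).

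Lower on day 3 than on day 1 was STMCN85, a tomato hypothetical protein, with a difference of -4.43 (SE 0.23), from 0.22, -0.62 and 0.59 to -3.93, -4.63 and -4.55. STMCH16, annotated as a cotton fibre elongation protein, gave -3.87, from -0.58, -0.73 and -0.54 to -4.87, -4.35 and -4.25. A solanine and chaconine rhamnosyltransferase, of the last step of potato glycoalkaloid synthesis (STMEH84), gave -3.51, from 0.39 and 0.70 to -3.04, -3.19 and -2.89. For these 3 clones the day 1 arrays lay nearer to 0 than those of day 3. That they did not overlap is likewise favoured by the choice. The others were gamma tubulin (STMGM17, -3.41), DIMINUTO of sterol synthesis (STMGG42, -3.13), a xanthine dehydrogenase-like clone (STMIX33, -2.62), an acid phosphatase (STMCI91, -2.53) and a potato hypothetical protein (STMCV86, -2.41). Without replicate 1 of day 3 the 16 differences ranged from -4.55 to 3.84 and all passed.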

How the results depend on the processing

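Where the ratios of the replicates with salt in Cy5 were turned, counts were 0 on day 1 and 0 for the difference of the days in both directions (882 and 70 at an unadjusted p under 0.05), and 0 of 45 lists kept a median below -0.5 (9 as reported, 0 above 0.5). With the dye term kept, a response common to all arrays passes into that term once ratios are turned. These counts thus largely repeat the result for the dye term. An adjusted p under 0.01 gave 391 higher and 598 lower clones on day 1 and 171 and 167 for the difference. With the day 1 arrays alone and no dye term 470 were higher. Leaving out each array in turn gave 171 to 1147 higher and 367 to 1387 lower clones on day 1, and 128 to 683 and 165 to 524 for the difference. Calls that were higher made up 44.1% of all and 31.8% without replicate 2 of day 1. The other alternatives (no dye term, scaling, centring, clones on all arrays) kept the 4 counts within 1.5 times of those reported. With the replicate number as a block in place of the dye term, 1124 clones were higher and 1267 lower on day 1, and 700 and 547 for the difference. The labels do not give the number as pairing plants. Same-numbered arrays of both days deviated together with r of 0.05, 0.60 and 0.45 over 7632 clones. For unlike numbers r ran from -0.52 to 0.20, and replicate 1 did not follow its own number best. What the number shares between the days was not tested. Of 2961 values of named clones under the alternatives, apart from the turned ratios, 2823 kept their side of the threshold. Of the others 132 lost the threshold, 48 of them without replicate 2 of day 1, and 6 gained it. Among values past the threshold in either fit 0 changed sign. Sign changes of values that passed in neither fit were not counted apart from the 2823. The cause of the shifts in counts and calls was not tested, beyond a stricter threshold leaving fewer calls. Fewer arrays did not always do so. Without replicate 1 of day 3 the day 1 counts were 1147 higher and 1387 lower, and without replicate 3 of day 3 they were 837 and 1111. The values of the value table were identical to those of the annotated table and gave no alternative. The number of arrays limits precision, and no signal over background was used here.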

Other observations

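Of 18 clones of nitrogen and sulfur assimilation 4 were lower and 1 was higher on day 1. All 3 clones for sulfate adenylyltransferase, which activates sulfate for cysteine, were lower: STMHU37 read -1.39, -1.22 and -0.96, STMER57 -0.87, -0.92 and -0.78 and STMDV93 -0.95, -0.95 and -0.84. STMHU37 and STMER57 share an assembly, and STMDV93 is of another. On the 3 arrays of day 3 STMHU37 stood at 1.34, 0.54 and 0.78, all above 0, and none of its day 1 arrays overlapped these. The 1 higher clone was asparagine synthetase (STMEJ12, 0.61, 0.84 and 1.10), which stores nitrogen in asparagine when carbon is short. The lower count was 8 without day 3 replicate 1. The higher count was 0 without any 1 of the day 1 arrays, where STMEJ12, with 1 value on day 3, could not be tested. STMDV93 (-0.90) did not pass without day 1 replicate 1.

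In membrane traffic and small GTPases 7 of 80 clones were higher (8.75%) and 9 lower (11.2%), with a median of 0.07. These shares lay near the 8.17% and 10.4% over all clones tested. In that list 2 clones annotated as GTP-binding proteins fell far: STMIQ66 read -2.19, -1.94 and -1.99 and STMEV93 -1.82, -1.99 and -2.21. Remorin, a protein of plasma membrane domains, was likewise picked by its values, with the potato clone STMHV95 at 1.26, 1.32 and 1.10 and a remorin-like clone (STMHP45) at 0.87, 0.61 and 0.91, all above 0. Among 53 clones of ion transport 3 were higher (5.66%) and 5 lower (9.43%), no larger shares than over all clones. The lower ones included a cyclic nucleotide-gated channel 6 (STMHZ73) at -1.45, -1.10 and -1.35. In the phenylpropanoid list 4 of 48 were higher (8.33%, near the share over all clones) and 3 lower (6.25%). Phenylalanine ammonia-lyase, its entry enzyme, read 0.78, 1.36 and 1.54 in STMGT03. Patatin, the storage protein of tubers, was lower in STMEP28 (-1.41, -1.40 and -1.43). STMGD48 (-0.36) and STMHA69 (0.22), also annotated as patatin, passed neither way, and of 11 tuber marker clones 3 were lower and 0 higher. Left-out arrays gave counts of 4 without day 1 replicate 1, 1 without day 1 replicate 2 and 4 without day 1 replicate 3 for the traffic rises, 5 without day 1 replicate 1, 3 without day 1 replicate 2 and 14 without day 3 replicate 1 for its falls, 3 without day 1 replicate 1, 3 without day 1 replicate 2, 3 without day 1 replicate 3 and 9 without day 3 replicate 1 for the ion transport falls and 0 without day 1 replicate 2 and 2 without day 1 replicate 3 for the phenylpropanoid rises. They also gave 1 without day 1 replicate 1, 0 without day 1 replicate 2, 1 without day 1 replicate 3 and 5 without day 3 replicate 1 for the ion transport rises, 1 without day 1 replicate 2 for the phenylpropanoid falls and 1 without day 1 replicate 1 for the tuber marker falls. STMHP45 (0.81) and STMGT03 (1.13) did not pass without day 1 replicate 2.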
